A study of Mus musculus with 2 samples.

Results

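Npy, Gal and Pnoc are 3 of the 32287 features in the matrices, and each encodes the precursor of a neuropeptide. They were taken by symbol in both matrices, over cells with at least 300 detected genes, at least 500 unique molecular identifiers (UMIs, each standing for 1 captured transcript) and at most 20% mitochondrial UMIs. They were chosen with earlier results of these data known, so their levels by library and cell class are a description and carry no test. The mice were p16-2A-CreER;R26-mTmG, in which an inducible Cre made from the p16 locus turns membrane tomato off and membrane GFP on, in the cell where it acts and in its progeny; 1 label gives the allele as p16-CreER. Both groups carried these alleles, both had myocardial infarction (MI) surgery, and both received tamoxifen by oral gavage on day 5. On day 7 the non-cardiomyocyte cells of the infarct zone were sorted into GFPhi cells and GFPlo cells, which another label calls GFP⁺ and GFP⁻, and each fraction gave 1 droplet 3′ library. How many mice were pooled, and their sex and age, the sources used here do not give. No uninjured or tamoxifen-free mouse was analysed here, so GFPhi set against GFPlo compares sorted fractions and not injured with uninjured heart.

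The GFPhi library held 10125 cells after the filters with a median of 6899 UMIs per cell, and the GFPlo library held 11959 cells with a median of 7712. With 1 library per fraction there is no replicate check, so no p-value is given, and every interval below is an exact 95% interval that covers counting error only. Levels are given as CPM, a gene's share of the summed UMIs of a group of cells on the per-1000000 scale, with a Poisson interval; shares of cells have a Clopper-Pearson interval. Clusters were named from marker lists, so "macrophage-like" means a cluster in which at least 3 macrophage markers stood higher than in the other cells. Those markers need not lead, and none stood among the top 10 genes of any macrophage-like cluster. Of the 34 clusters 6, with 1459 GFPhi cells and 1405 GFPlo cells, were left unnamed. Among these, clusters 7 and 21 had 3 and 6 macrophage markers and cluster 26 had 7 T cell markers. They stayed unnamed because they were shallow, at medians of 1192, 1078 and 1241 UMIs, with none of those markers among their top 10 genes. The macrophage-like shares below leave out clusters 7 and 21. The fractions differ in cell makeup: macrophage-like cells were 72.4% of GFPhi cells and 0.652% of GFPlo cells, fibroblast-like cells 3.41% and 51.9%, and mesothelial-like cells 5.08% and 14.6%. A library ratio for a gene of 1 class therefore moves with how many cells of that class the sort delivered. The libraries shared 94 barcodes, of which 92 passed the filters in both, and 3 of those fell into the same class in both libraries.

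Neuropeptides are made as larger precursors, cut by prohormone convertases, trimmed by carboxypeptidases, often amidated at the end, stored in dense-core granules and released to act on G protein-coupled receptors. In the heart neuropeptide Y, from Npy, is best known as a cotransmitter of sympathetic nerves that constricts vessels, and galanin, from Gal, as a peptide of sympathetic and sensory neurons that can restrain vagal release. Prepronociceptin, from Pnoc, is the precursor of nociceptin, the ligand of the opioid-like receptor Oprl1, and is best known from brain and spinal cord.

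In the mm10 build Npy (ENSMUSG00000029819) lies on chromosome 6 from 49822710 to 49829507 on the forward strand, with 1 annotated transcript of 4 exons. Gal (ENSMUSG00000024907) lies on chromosome 19 from 3409915 to 3414544 on the reverse strand, with 2 annotated transcripts and 6 exons. Pnoc (ENSMUSG00000045731) lies on chromosome 14 from 65400673 to 65425472 on the reverse strand, with 2 annotated transcripts and 4 exons. None of the 3 overlaps another annotated gene in GENCODE vM21, so UMIs of a neighbour on either strand do not fall inside them by annotation. The 250 bases before the annotated start are printed for Npy and Gal, since both transcripts are set apart by the cells that hold them; they are RefSeq sequence of GRCm38.p6, 5′ to 3′ on the gene's strand, with capitals marking the motif letters found.
Npy: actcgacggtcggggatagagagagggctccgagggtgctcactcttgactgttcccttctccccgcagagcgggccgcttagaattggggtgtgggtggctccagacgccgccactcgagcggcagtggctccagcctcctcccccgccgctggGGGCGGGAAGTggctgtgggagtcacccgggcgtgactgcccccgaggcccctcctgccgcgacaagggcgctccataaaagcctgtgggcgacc
Gal: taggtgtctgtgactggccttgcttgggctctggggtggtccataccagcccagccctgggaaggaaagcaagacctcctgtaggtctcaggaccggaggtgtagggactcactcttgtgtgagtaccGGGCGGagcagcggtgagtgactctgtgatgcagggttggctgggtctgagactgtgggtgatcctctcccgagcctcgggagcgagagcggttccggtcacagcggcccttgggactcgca
The Npy stretch is chr6:49822460-49822709 on the forward strand and the Gal stretch is chr19:3414545-3414794 on the reverse strand. The motifs searched on both strands were the GC box GGGCGG, the ETS core GGAAGT, the TATA box TATAAA, the AP-1 site TGANTCA, the cyclic AMP element TGACGTCA and the antioxidant core TGACNNNGC. The GC box was found once in each stretch and the ETS core once, in Npy, where it shares 1 letter with the GC box. Among 32851 promoters of the same length 32.7% hold the GC box and 19.7% the ETS core, so neither match is unusual. The other 4 motifs had no match in either stretch, which says only that these letters are not in this window. Pnoc had no entry in the table.

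**Figure D1:**
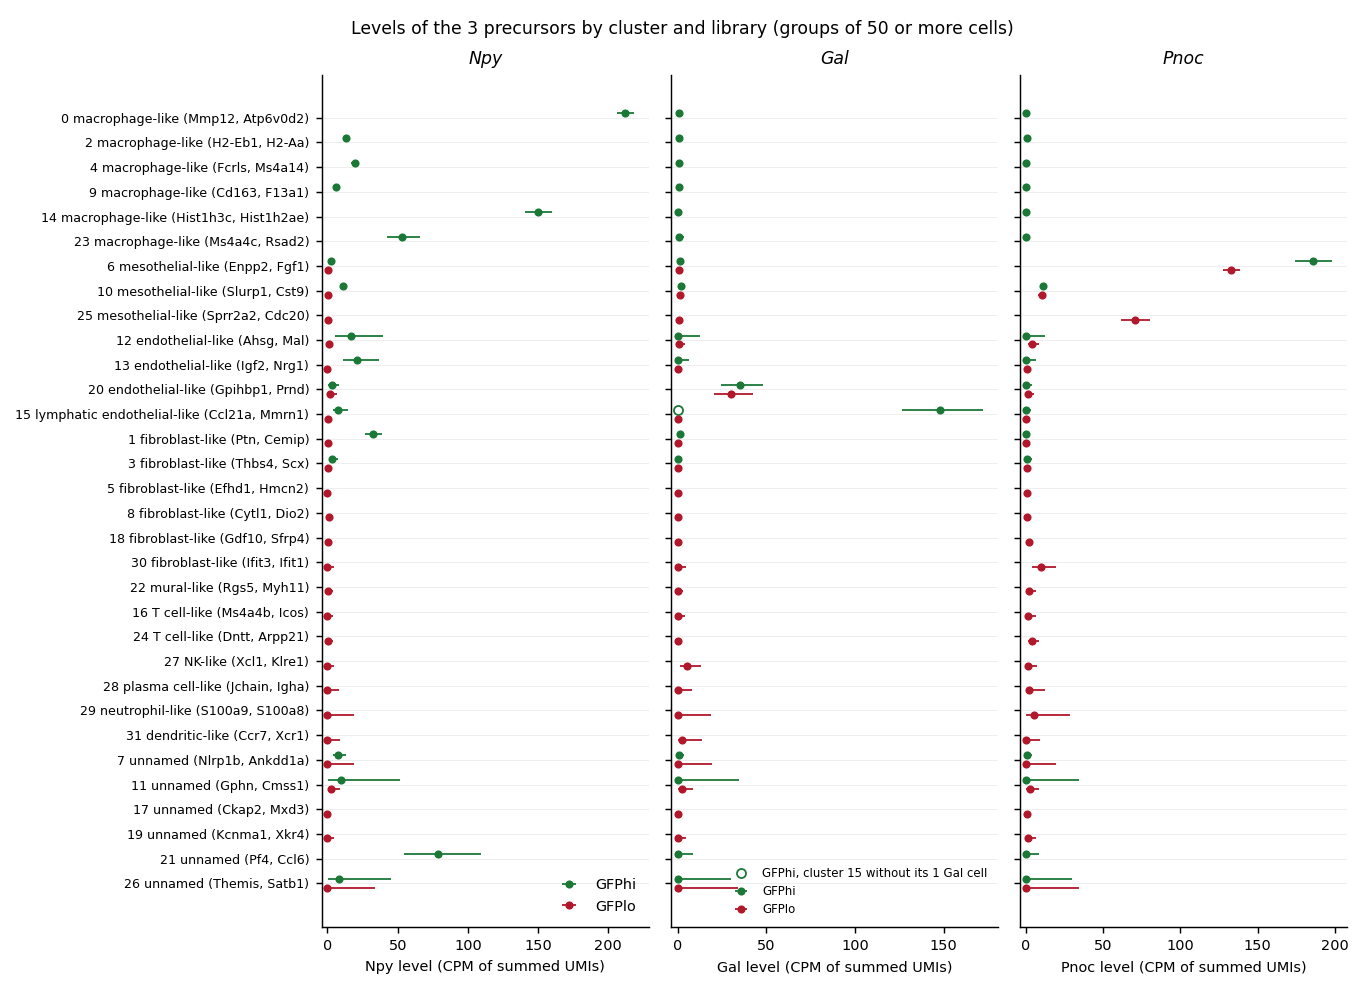
Levels of Npy, Gal and Pnoc in CPM of summed UMIs (linear axis) in each cluster, as 1 point per library with at least 50 cells (GFPhi green, GFPlo red), with exact 95% Poisson intervals as bars and an open circle for cluster 15 without its Gal-rich cell. Npy is highest in macrophage-like cluster 0 of GFPhi at 212 CPM, Gal in lymphatic-like cluster 15 of GFPhi at 148 CPM from 1 cell, and Pnoc in mesothelial-like cluster 6 of both libraries, at 186 CPM in GFPhi and 133 CPM in GFPlo.

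Npy lay mainly in macrophage-like cells of the GFPhi fraction. GFPhi cells held 6967 Npy UMIs, 76.6 CPM (74.8 to 78.4), in 1257 of 10125 cells, and GFPlo cells held 34 UMIs, 0.325 CPM, in 24 of 11959 cells, a ratio of 235 (168 to 340). Of the 9213 features that reached 10 CPM in either library, 15.6% were at least 1.5-fold higher in GFPhi and 31.2% were at least 1.5-fold lower, or 1438 and 2872 features; with median-of-ratios scaling these were 2057 and 1875. The Npy ratio moves with the number of macrophage-like cells in each fraction, and once those cells were left out of both libraries it was 38.9. Macrophage-like clusters held 6648 of the GFPhi UMIs, 95.4%, in 1163 cells, while the 78 macrophage-like GFPlo cells held 4 Npy UMIs in 2 cells. Within the class Npy was at 106 CPM in GFPhi and 8.65 CPM in GFPlo, a ratio of 12.3 (4.80 to 45.1). Of the GFPlo cells 12 lay in cluster 0 and 42 in the MHC class II cluster 2, both described below. The GFPhi cells there were 2407 and 1762. The subset makeup thus differs between the fractions, and the 78 cells are too few to say whether macrophages outside the GFPhi gate carry Npy at another level.

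Within the macrophages Npy was graded by subset. Cluster 0, led by the matrix metalloelastase Mmp12, the proton pump subunit Atp6v0d2 and the lysosomal glycoprotein Gpnmb, held 5200 UMIs in its 2407 GFPhi cells, 212 CPM (206 to 218) and 74.6% of the library's Npy. Cycling macrophage-like cluster 14 held 957 UMIs in 415 cells, 150 CPM (141 to 160). The interferon-response cluster 23, in which 1 monocyte marker stood among the top 10 genes, was at 53.1 CPM (42.3 to 65.8). The Fcrls-led cluster 4 was at 19.5 CPM (16.9 to 22.4), and the MHC class II cluster 2 at 13.5 CPM (11.5 to 15.8). Cluster 9, with the resident-type genes Cd163 and F13a1, was lowest of the macrophage-like clusters at 6.17 CPM (4.58 to 8.14). The intervals of neighbouring clusters in this order do not overlap, but they cover counting error only and so do not settle the order. Npy was uneven among cells, and 33 of the 83 UMIs of cluster 23 lay in 1 cell. The unnamed cluster 21, led by Pf4 and Ccl6, was at 78.5 CPM from 35 UMIs (54.7 to 109), an interval that overlaps that of cluster 23. It had 6 macrophage markers but was shallow, with none of them leading, and so took no name.

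At equal depth clusters 0 and 14 again stood above the rest. With each cell thinned to 1000 UMIs, 11.2% of cluster 0 cells had an Npy UMI (9.96 to 12.5), as did 9.18% of cluster 14 cells (6.58 to 12.4), and these intervals overlap. The shares were 1.53% in cluster 4, 1.08% in cluster 23 (0.130 to 3.83), 0.909% in cluster 2 and 0.764% in cluster 9. Cluster 23 thus stood lower by share of cells than by level, as its 83 UMIs lay in 16 cells, with up to 33 in a cell. Classes that should lack Npy gave the background: 0.584% of mesothelial-like GFPhi cells, whose median depth was 28624 UMIs, and 0.820% of endothelial-like GFPhi cells, at a median of 4677, against 4.86% of all macrophage-like GFPhi cells, at a median of 7304. The shares in clusters 2, 9 and 23 lie close to the background, and those in clusters 0 and 14 lie far above it. The share in cluster 4 lies between. This background leaves out fibroblast-like cells. By level, fibroblast-like GFPhi cells were at 18.5 CPM, with cluster 1 at 32.4 CPM. Endothelial-like cluster 13 was at 20.9 CPM, from 12 UMIs in 1 cell, and mesothelial-like cells were lower, at 7.16 CPM. The levels of clusters 4, 2 and 9 are thus not set apart from levels seen outside the macrophages. Unthinned, 33.6% of cluster 0 cells and 27.0% of cluster 14 cells had an Npy UMI.

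Npy was concentrated in a minority of the cells of its own cluster. Of the cluster 0 cells in GFPhi 66.4% had no Npy UMI, although the mean was 2.16 per cell; among 413 genes whose mean was within 1.5-fold of this, the median share of cells without a UMI was 24.8%. The variance of Npy was 19.6 times its mean, against a median of 1.92 times among those genes, of which 2 were higher, with the chemokine gene Ccl6 highest at 38.6. The 241 cells richest in Npy, 10% of the cluster, held 76.2% of its UMIs, and 94 cells held 50% of them. The cells ran from 257 with 1 UMI to 145 with more than 10, and the richest held 92. In cycling cluster 14 the richest cell held 113.

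**Figure D2:**
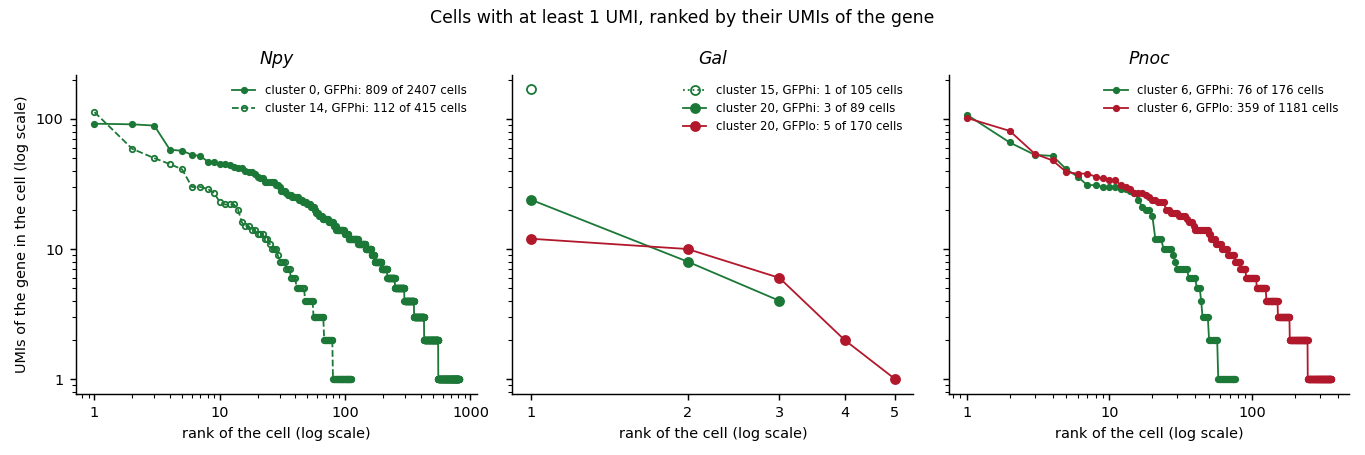
Cells ranked by their UMIs of each gene within the cluster that holds it (UMIs per cell against rank, both on log axes, GFPhi in green and GFPlo in red). The Npy line of cluster 0 spans 809 GFPhi cells and starts at 92 UMIs, the Gal point of cluster 15 is 1 cell with 170 UMIs, and the Pnoc line of cluster 6 starts at 108 UMIs in GFPhi and 102 in GFPlo.

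Macrophages with Npy carried more of the lipid-associated genes and less of the resident-type genes than macrophages without it. To match depth, each macrophage-like GFPhi cell was thinned to 2000 UMIs, which left 510 cells with an Npy UMI and 6708 without. Of the 2446 genes that could be ranked, 173, or 7.07%, were at least 1.5-fold higher in cells with Npy and 487 were at least 1.5-fold lower. Cells were split by Npy itself, so the genes it travels with are a description. Mfge8, a bridging protein for the uptake of dying cells, was at 152 CPM with Npy and 23.3 CPM without, 6.51-fold (5.34 to 7.92). Mmp12 was at 906 and 191 CPM, 4.74-fold (4.39 to 5.11), and Gpnmb at 1992 and 523 CPM, 3.81-fold (3.62 to 4.0). The other 7 of the 10 genes ranked highest were the serine protease Prss46 at 6.06-fold, Atp6v0d2 at 3.29-fold, the galectin Lgals3 at 3.11-fold, the fatty acid binding proteins Fabp4 at 3.09-fold and Fabp5 at 2.83-fold, osteopontin Spp1 at 2.88-fold and cathepsin L Ctsl at 2.85-fold.

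The 5 genes ranked lowest included 3 that mark resident-type macrophages. Lyve1, a hyaluronan receptor, was at 2.94 CPM in cells with Npy and 67.1 CPM in cells without. The coagulation factor subunit F13a1 was at 25.5 and 304 CPM, and the carbonyl reductase Cbr2 at 15.7 and 141 CPM. Arginase Arg1 was at 5.88 and 65.8 CPM, and the monocyte attractant Ccl12 at 65.7 and 444 CPM. Over whole lists, 7 of 7 lipid-associated genes were higher with Npy, with a summed level of 23253 CPM in cells with Npy and 8307 CPM in cells without, and 0 of 7 resident-type genes were higher, at 136 and 744 CPM. None of the 6 MHC class II genes was higher, at 5847 and 11596 CPM, nor was any of the 8 dissociation-stress genes, at 4225 and 7331 CPM. The 6 cycling genes were all higher, at 251 and 177 CPM. The share of all ranked genes above 1 was not taken, so such counts, here and below, describe the lists alone.

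These differences narrowed inside cluster 0 alone, where 378 cells with Npy were set against 1996 without. The lipid-associated list was still higher in all 7 genes, at 26492 and 17413 CPM, 1.52-fold. MHC class II genes were at 4652 and 4158 CPM there, on the other side of 1 from the whole class. Mfge8 was at 192 and 44.1 CPM, 4.35-fold (3.47 to 5.45), Mmp12 at 1184 and 431 CPM, 2.74-fold (2.53 to 2.98), and the lipoprotein lipase Lpl 2.09-fold. The transcription factor Maf was at 0.292 of its level in cells without Npy, the Fc receptor-like gene Fcrls at 0.354 and the chemokine Ccl8 at 55.6 and 143 CPM, 0.388. Dissociation-stress genes were at 3978 CPM with Npy and 5851 CPM without, and their part in these differences was not tested.

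**Figure D3:**
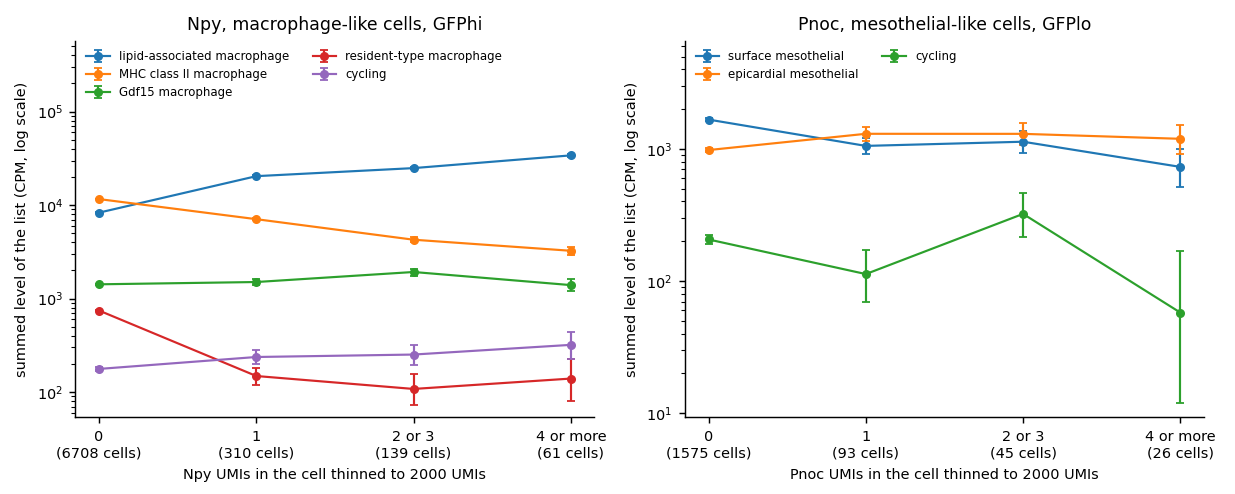
Summed level (CPM, log axis) of gene lists in macrophage-like GFPhi cells grouped by their Npy UMIs, and in mesothelial-like GFPlo cells grouped by their Pnoc UMIs, after thinning to 2000 UMIs, with bars for exact 95% Poisson intervals. The lipid-associated list is at 8307 CPM in cells with no Npy UMI and 34041 CPM in cells with at least 4, while the MHC class II list is at 11596 and 3246 CPM.

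The more Npy a macrophage held, the more of the lipid-associated list it held. That list was at 8307 CPM in 6708 cells with no Npy UMI, 20402 in 310 cells with 1, 24878 in 139 cells with 2 or 3 and 34041 in 61 cells with at least 4. The MHC class II list ran the other way, at 11596, 7069, 4263 and 3246 CPM. The share of these cells that belonged to cluster 0 was 29.7%, 69.0%, 83.5% and 86.9%, so the gradient moves with cluster. Resident-type genes were at 744, 148, 108 and 139 CPM, and the intervals of the last 3 groups overlap.

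Some Npy lay outside the macrophages, in a few cells that held much of it. In GFPhi 22 of 345 fibroblast-like cells held 122 UMIs with up to 38 in a cell, and 22 of 514 mesothelial-like cells held 108 with up to 41. Macrophage markers summed to 1576 CPM in those 22 fibroblast-like cells and 597 CPM in the rest of the class, and to 1602 and 437 CPM in the mesothelial-like cells. Per 1000 macrophage-marker UMIs, fibroblast-like cells held 26.9 Npy UMIs, mesothelial-like cells 14.6 and cluster 0 itself 15.6; the part of macrophage RNA in these cells was not tested. In GFPlo 1 Schwann-like cell of 14 held 6 Npy UMIs and no macrophage-marker UMI.

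Gal was a rare transcript, and 1 cell decides its library ratio. GFPhi cells held 263 Gal UMIs, 2.89 CPM, in 56 cells and GFPlo cells held 71 UMIs, 0.679 CPM, in 38 cells, a ratio of 4.26 (3.26 to 5.61). A single GFPhi cell held 170 of the 263, 64.6%. Without it GFPhi had 93 UMIs in 55 cells, 1.02 CPM, against 71 in GFPlo, and the ratio was 1.51 (1.09 to 2.08). Most of the remaining UMIs were single: 16 cells in both libraries held 2 or more, macrophage-like GFPhi cells held 28 UMIs in 27 cells, and mesothelial-like cells held 23 UMIs in 22 GFPhi cells and 24 UMIs in 21 GFPlo cells.

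That cell was deep, at 48571 UMIs and 5803 genes, the 54th deepest in GFPhi. It fell into lymphatic-like cluster 15, which it put first among clusters for Gal at 148 CPM, but it went against that name. The lymphatic markers Prox1, Mmrn1, Ccl21a and Reln were at 0 in it, Flt4 was at 1 UMI, and the list summed to 20.6 CPM in the cell and 16958 CPM in the rest of the cluster. It had UMIs for 7 of 7 endothelial markers and 6 of 6 cycling markers. Among endothelial subsets it had UMIs for 6 of 6 tip-cell and 5 of 7 arterial markers, but for 1 of 7 capillary and 0 of 6 endocardial markers. It also had UMIs for 4 of 8 macrophage markers, which summed to 247 CPM in it and 689 CPM in the rest of the cluster. The other 104 GFPhi and 292 GFPlo cells of cluster 15 held 0 Gal UMIs, which allows up to 2.73 and 1.57 CPM. Among its genes, chosen after their values were seen, were 189 UMIs of haem oxygenase Hmox1, 61.6-fold its level in the other cells of the cluster (50.1 to 75.7), 82 of the peroxiredoxin Prdx6, 25.9-fold, and 80 of the glutathione synthesis subunit Gclm, 19.6-fold. Of 10 neuronal markers the cell had UMIs for 2, with 21 of Uchl1, 39.4-fold the level in the rest of the cluster (21.7 to 70.1), and 1 of Stmn2, while the noradrenaline synthesis genes Th and Dbh and the synaptic gene Snap25 were at 0. That list summed to 453 CPM in the cell and 149 CPM in the other cells of the cluster.

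With that cell set aside, Gal was highest in capillary-type endothelial cluster 20 of both libraries. The cluster is led by Gpihbp1, which anchors lipoprotein lipase on capillaries, with Prnd, Aplnr, Esm1 and the peptide gene Apln. Its 36 UMIs in GFPhi came from 3 of 89 cells, with 24, 8 and 4 each, at 34.8 CPM (24.4 to 48.2). Its 31 UMIs in GFPlo came from 5 of 170 cells, with 12, 10, 6, 2 and 1 each, at 29.7 CPM (20.2 to 42.2). The ratio of 1.17 has an interval from 0.704 to 1.96, so no difference between the fractions could be seen at this depth, and without the richest cell of each library it was 0.635 (0.281 to 1.38). Of the 170 GFPlo cells, 97.1% had no Gal UMI, against a median of 85.3% among 2605 genes of like mean.

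The 8 cells of cluster 20 with Gal were too few to rank companion genes across the transcriptome, and they were deeper, at a median of 22874 UMIs against 5001 in the 251 without. The capillary list summed to 1183 CPM in the cells with Gal and 2211 CPM in those without, 0.535-fold (0.468 to 0.609), and dissociation-stress genes to 1438 and 3404 CPM. The tip-cell list was 1.21-fold (1.12 to 1.31), the arterial list 1.39-fold (1.17 to 1.64) and the cycling list 2.46-fold (2.15 to 2.80). The cycling list ran from 0 to 5174 CPM among the 8 cells, and its median of 537 lay below the 573 CPM of cells without Gal. The medians of the tip-cell and arterial lists, 3693 and 1017 CPM, lay above the 2906 and 580 CPM of cells without. Among single genes, the tip-cell gene Esm1 was at 324 CPM in the cells with Gal and 81.2 CPM in those without, 3.99-fold (2.94 to 5.36), and Prnd at 839 and 266 CPM, 3.16-fold. Apln was 1.91-fold higher and the arterial transcription factor Sox17 1.57-fold higher. The apelin receptor gene Aplnr was at 34.4 and 233 CPM, 0.147 of its level without Gal, while Gpihbp1 was at 0.899 (0.752 to 1.07). Macrophage markers were at 682 CPM with Gal and 296 CPM without, with a median of 0 and a highest value of 2493 CPM among the 8 cells. Their part in these differences was not tested. These are sums over 8 cells and describe those cells.

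Pnoc lay mainly in mesothelial-like cells of both fractions. GFPhi cells held 1112 UMIs, 12.2 CPM, in 112 cells and GFPlo cells held 2670 UMIs, 25.5 CPM, in 474 cells, a ratio of 0.479 (0.446 to 0.513). Mesothelial-like cells held 98.4% of the GFPhi UMIs and 97.2% of the GFPlo UMIs. These shares depend on the clustering. At Leiden resolution 2 a cluster led by Col24a1 and Cxcl13, with Enpp2 and Wnt4, held 1027 Pnoc UMIs over both libraries, at 102 CPM. With GFPlo clustered alone, a cluster led by Npl and Gatm, also with Enpp2 and Wnt4, held 951 of the 2670 UMIs, at 92.0 CPM. Neither cluster reached 3 markers of any class, so both stayed unnamed. The library ratio moves with the share of mesothelial-like cells, and with macrophage-like cells left out of both libraries it turned round, to 1.51. Within the mesothelial-like class Pnoc was at 72.5 CPM in GFPhi and 95.9 CPM in GFPlo, a ratio of 0.756 (0.704 to 0.812), but the class is made of 3 clusters in different proportions.

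Cluster 6, with the lysophospholipase Enpp2, the growth factor Fgf1 and the ligand Wnt4 among its leading genes beside Pnoc, held 86.2% of the GFPhi Pnoc and 86.1% of the GFPlo Pnoc. In it Pnoc was at 186 CPM in GFPhi (174 to 198; 958 UMIs in 76 of 176 cells) and 133 CPM in GFPlo (127 to 138; 2300 UMIs in 359 of 1181 cells). The ratio was 1.40 (1.30 to 1.51), and 1.30 (1.201 to 1.41) without the richest cell of each library. Cells of cluster 6 were deeper in GFPhi, at a median of 27757 UMIs against 13565 in GFPlo. Thinned to 1000 UMIs, 13.1% of the GFPhi cells (8.47 to 19.0) and 8.06% of the GFPlo cells (6.57 to 9.76) had a Pnoc UMI, and these intervals overlap. Thinned in the same way, the background share was 0.0137% in macrophage-like GFPhi cells, whose median depth was 7304 UMIs, and 0.0484% in fibroblast-like GFPlo cells, at 8418.

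The other mesothelial clusters held less. Cycling cluster 25 had 40 UMIs in 30 GFPhi cells, 33.1 CPM, and 229 UMIs in 142 GFPlo cells, 70.4 CPM (61.6 to 80.1). Cluster 10, with the surface genes Slurp1, Krt14 and Msln, had 96 UMIs in GFPhi, 11.01 CPM, from 13 cells of which 1 held 54. The same cluster had 67 UMIs in GFPlo, 10.3 CPM, from 25 cells. Its ratio of 1.07 (0.772 to 1.48) was 0.558 (0.365 to 0.848) without the richest cell of each library, so 1 cell decides it. Outside the mesothelium, 15 of 9611 GFPhi cells held 18 Pnoc UMIs and 48 of 10208 GFPlo cells held 74, of which 14 were in 1 plasmacytoid-type dendritic cell.

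Pnoc too was uneven among the cells of its cluster. In GFPlo 69.6% of cluster 6 cells had no Pnoc UMI, against a median of 28.0% among 909 genes of like mean, and the variance was 21.1 times the mean against a median of 1.84 times. The richest 119 of the 1181 cells held 79.7% of the UMIs, and 40 cells held 50%. In GFPhi 56.8% had none, against 8.52% among 577 genes of like mean, 11 cells held 50%, and the richest cell held 11.3%.

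**Figure D4:**
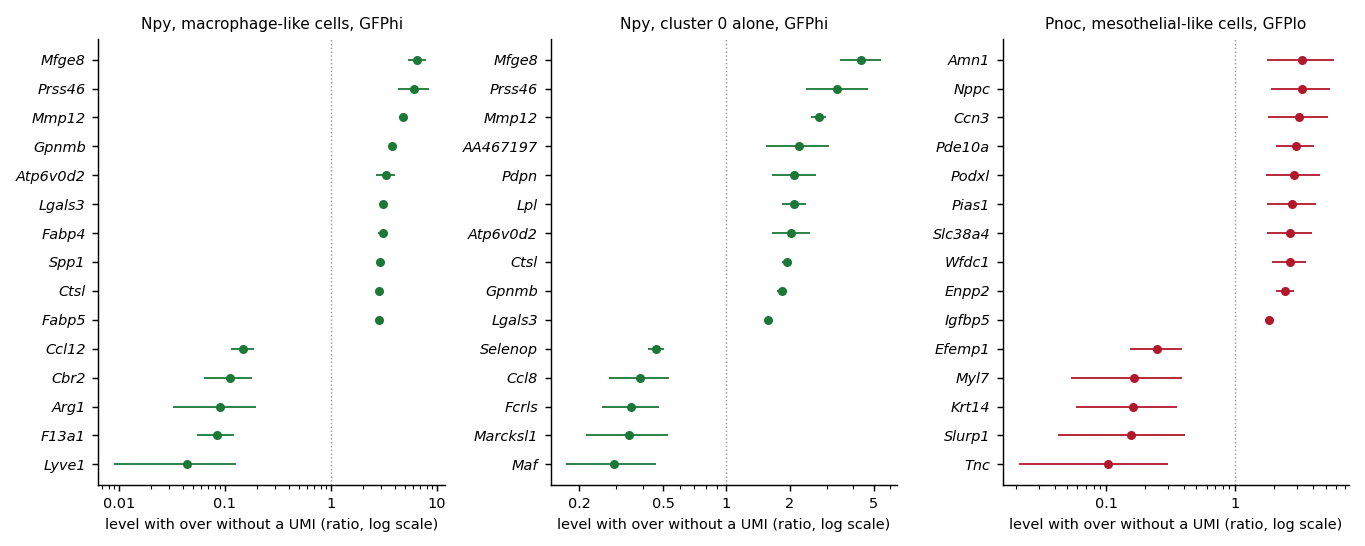
Ratio of summed CPM (log axis) in cells with a UMI of the gene over cells without, after thinning to 2000 UMIs, for the 10 highest and 5 lowest companion genes of Npy in macrophage-like GFPhi cells and in cluster 0 alone, and of Pnoc in mesothelial-like GFPlo cells, with exact 95% intervals as bars and a dotted line at 1. Mfge8 stands at 6.51 and at 4.35 in the panels for Npy, and Enpp2 stands at 2.42 in the panel for Pnoc.

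Mesothelial-like cells with Pnoc had more Enpp2 in both libraries and less of the surface keratin programme. In GFPhi only 35 cells with Pnoc could be set against 477 without. Of 3197 genes 859, 26.9%, were at least 1.5-fold higher and 673 at least 1.5-fold lower, so the ranking is coarse. Enpp2, which makes lysophosphatidic acid, was at 286 CPM with Pnoc and 57.7 CPM without, 4.96-fold (2.81 to 8.40), and the galectin Lgals1 at 14271 and 6764 CPM, 2.11-fold (1.97 to 2.26). Krtdap led the GFPhi ranking at 31.8-fold, from 14 UMIs in cells with Pnoc and 6 in cells without (11.5 to 101). The surface keratin Krt14 had 0 UMIs in GFPhi cells with Pnoc and 229 in those without, and the prostaglandin-degrading enzyme Hpgd had 0 and 485. In GFPlo, with 164 cells with Pnoc and 1575 without, 212 of 2942 genes, 7.21%, were at least 1.5-fold higher and 232 at least 1.5-fold lower.

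The ranking in GFPlo depended on the thinning and the cells chosen, with 1 to 6 of the 10 highest companions shared under other settings. Enpp2 was at 558 CPM with Pnoc and 231 CPM without, 2.42-fold (2.04 to 2.85), the phosphodiesterase Pde10a at 149 and 51.1 CPM, 2.92-fold (2.08 to 4.05), and the IGF binding protein Igfbp5 at 2628 and 1433 CPM, 1.83-fold (1.70 to 1.97). Nppc, the precursor of C-type natriuretic peptide, was 3.25-fold higher (1.88 to 5.41) and the matricellular gene Ccn3 3.10-fold. The matrix gene Tnc was at 9.15 and 89.2 CPM, Slurp1 at 12.2 and 78.1 CPM and Krt14 at 18.3 and 113 CPM. Only Enpp2 stood among the 10 highest companions of both libraries. Of the 10 highest GFPlo companions, 8 were above 1 in GFPhi and 4 had an interval wholly above 1. Of the 10 highest GFPhi companions, 8 were above 1 in GFPlo and 6 had an interval wholly above 1. The share of all ranked genes above 1 was not taken, so these counts describe the named genes alone. At least 1.5-fold higher were 26.9% of all ranked genes in GFPhi and 7.21% in GFPlo.

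Over lists, the surface mesothelial genes summed to 1400 CPM with Pnoc and 3117 CPM without in GFPhi, and to 1024 and 1667 CPM in GFPlo, with none of the 5 genes higher in either library. Epicardial genes summed to 1000 and 911 CPM in GFPhi, 1.10-fold (0.848 to 1.40), and to 1284 and 980 CPM in GFPlo, 1.31-fold, with 3 of 7 genes higher in each. Macrophage markers summed to 543 and 491 CPM in GFPhi and to 39.6 and 32.7 CPM in GFPlo. Within cluster 6 of GFPlo, where 149 cells with Pnoc were set against 1023 without, the surface list was 1.16-fold, on the other side of 1. Enpp2 was not among the 10 highest companions within that cluster. Rarres1 was at 154 and 45.5 CPM there, 3.40-fold (2.33 to 4.89), while smooth muscle actin Acta2 was at 141 and 416 CPM and Tnc was at 0.109 of its level without Pnoc.

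Across the 43 groups of cluster and library with at least 50 cells, the genes whose log2(CPM + 1) followed each precursor most closely were counted among 7640, as a description, since clusters share libraries and depth. For Npy they were Gpnmb (Pearson r = 0.896), Syngr1 (0.891), the complement gene C1qc (0.890), Gdf3 (0.878) and Mmp12 (0.877). For Pnoc they were Zfp804b (0.893), Aplp1 (0.846), Gng13 (0.825), the claudin Cldn10 (0.822) and Cxadr (0.817). For Gal they were Prnd (0.765), Rbp7 (0.712), Depp1 (0.711), D5Ertd615e (0.705) and Sox17 (0.702), and without the Gal-rich cell they were Prnd (0.820), the gap junction gene Gja5 (0.792), Aplnr (0.765), Apln (0.744) and Sox17 (0.729).

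The precursors were seldom found in the same cell. In GFPhi 8 cells held Npy and Gal, 5 Npy and Pnoc, and 2 Gal and Pnoc. In GFPlo these numbers were 0, 2 and 7.

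Few of the matching receptors were found. Of 5 NPY receptors only Npy1r, the vasoconstrictor receptor, reached 10 CPM in any group, in mural-like GFPlo cells at 17.0 CPM from 24 UMIs (10.9 to 25.3); it had 26 UMIs in all of GFPhi and 101 in all of GFPlo. None of the 3 galanin receptors reached 10 CPM: Galr2 had 13 UMIs in GFPhi and 126 in GFPlo, Galr1 had 0 in both and Galr3 0 and 3. Oprl1, the nociceptin receptor, had 1 UMI in GFPhi and 2 in GFPlo. Of the other opioid receptors Oprm1 reached 11.3 CPM in natural killer-like GFPlo cells, from 9 UMIs. Low receptor counts in 3′ droplet data do not show that a receptor is absent.

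Among the enzymes that cut and trim precursors, 9 of 13 reached 10 CPM in some group, with Scg5 doing so from 2 UMIs in unnamed cluster 26 of GFPlo. The share of all features that reach 10 CPM in some group was not taken, so such counts describe each list alone. Neither Pcsk1 nor Pcsk2, the convertases of dense-core granules, reached 10 CPM in any group, with 4 and 8 UMIs in GFPhi and 6 and 28 in GFPlo. Furin, a convertase of the Golgi, was at 89.1 CPM in GFPhi and 43.3 CPM in GFPlo, and Pam, which amidates peptide ends as in neuropeptide Y and galanin, at 120 and 610 CPM. Of the 8 enzymes that reached 10 CPM in either library, 2 were at least 1.5-fold higher and 5 at least 1.5-fold lower in GFPhi, beside 15.6% and 31.2% of all features, and 4 were lower with median-of-ratios scaling. Their median log2 ratio was -1.18, beside -0.265 over all features tested. In cluster 0 of GFPhi, where Npy lay, Furin was at 121 CPM, the carboxypeptidase Cpd at 76.7, Pam at 37.1 and the granule carboxypeptidase Cpe at 3.43. In cluster 6, where Pnoc lay, Cpe was at 177 CPM in GFPhi and 139 CPM in GFPlo, and Pam at 107 and 159 CPM.

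All 15 peptide-degrading enzymes reached 10 CPM in some group. Of the 10 that reached 10 CPM in either library, 1 was at least 1.5-fold higher and 5 at least 1.5-fold lower in GFPhi, beside 15.6% and 31.2% of all features, and 4 were lower with median-of-ratios scaling. Their median log2 ratio was -0.55, beside -0.265 over all features. The higher one was the aminopeptidase Anpep, at 68.7 CPM in GFPhi and 29.0 CPM in GFPlo, and it was highest in cluster 0 at 142 CPM. Dpp4, which trims neuropeptide Y, was at 22.0 and 25.3 CPM over the libraries and at 0.612 CPM in cluster 0 of GFPhi. In cluster 6 it was at 39.2 CPM in GFPhi and 30.2 CPM in GFPlo.

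Of 10 genes of the dense-core granule, 2 reached 10 CPM in any group: chromogranin Chga, at 12.5 CPM from 13 UMIs in cluster 20 of GFPlo, and Cadps2, at 58.0 CPM in endothelial-like cluster 13 of GFPlo. Snap25 had 1 UMI in each library. Of 41 other neuropeptide precursors, 14 reached 10 CPM in some group, and 8 had no UMI in either library. Several shared a cluster with the 3 genes. Cluster 6 held Calca at 34.5 CPM in GFPhi and 31.7 CPM in GFPlo, Calcb at 23.3 and 19.2 CPM and Nppc at 51.6 and 29.1 CPM. Cluster 20 held Apln at 146 and 134 CPM and Nts, the neurotensin precursor, at 58.0 and 164 CPM, while Nts reached 1472 CPM in GFPhi and 862 CPM in GFPlo in lymphatic-like cluster 15.

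**Figure D5:**
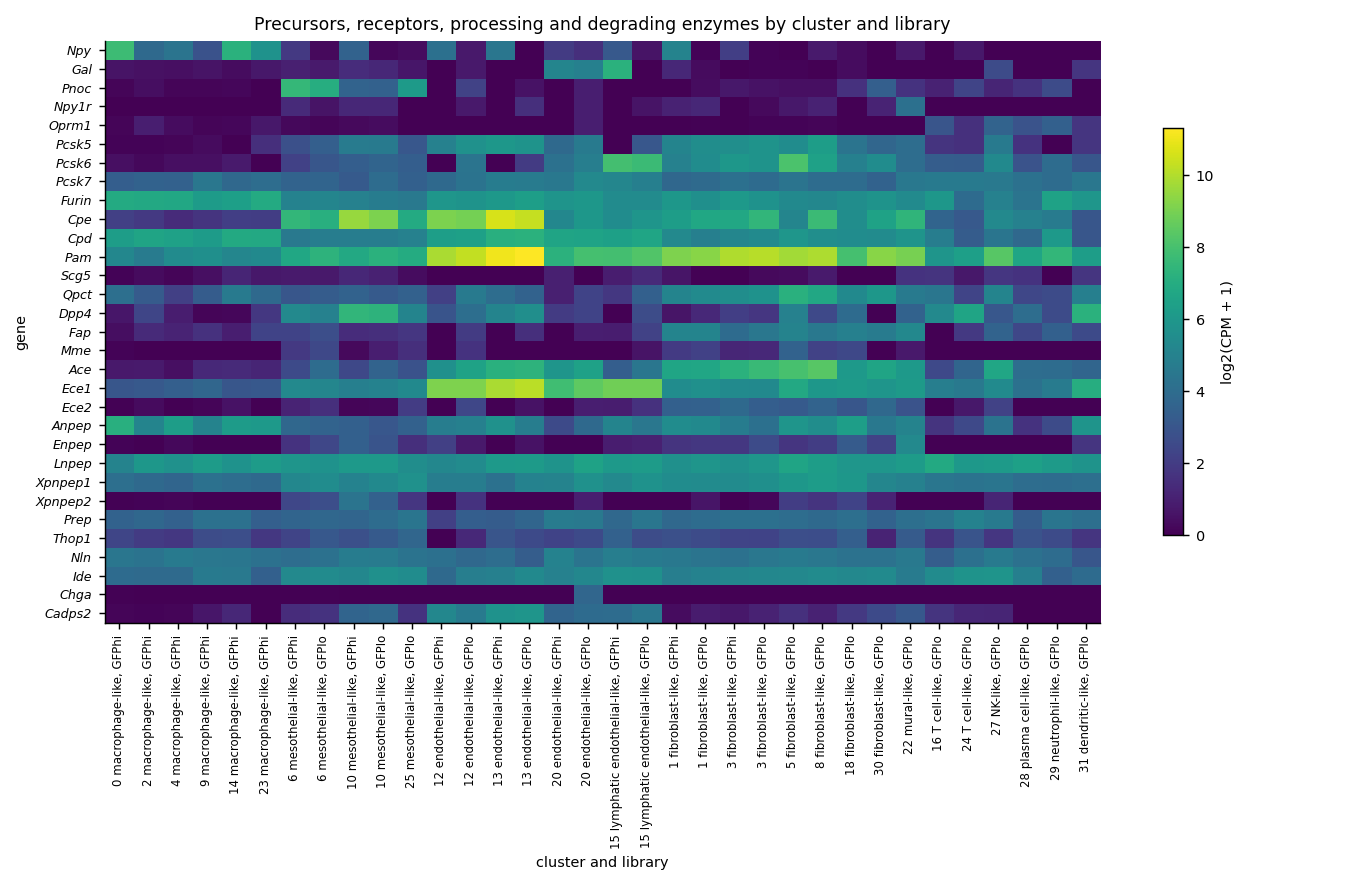
Levels of Npy, Gal and Pnoc, of receptors, enzymes and granule genes that reached 10 CPM in some group, as colour on the log2(CPM + 1) scale, in the named clusters with at least 50 cells in a library, with GFPhi left of GFPlo within a cluster. Furin and Anpep are bright in macrophage-like cluster 0 of GFPhi, at 121 and 142 CPM, while the rows of Npy1r and Oprm1 stay dark in most groups.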

How the data were processed

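Single-cell 3′ libraries of GFPhi and GFPlo infarct-zone cells were made with the SeekOne droplet kit, per the labels' protocols, although the labels' description field names 10x Genomics. The authors deposited UMI counts as 1 matrix of genes by barcodes per library (raw whole numbers, no normalization); mm10 comes from the submitters' processing notes, and the sources used here give neither the aligner nor the cell caller. GFPhi held 91343549 UMIs in 10430 barcodes and GFPlo 104855204 in 12344; the cell filters left out 305 and 385 barcodes.

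Cells of both libraries were clustered together in Python 3.11.15 (scikit-learn 1.9.0, leidenalg 0.10.2) on 2000 variable genes without Npy, Gal, Pnoc, pathway or reporter genes, with 30 principal components, 15 neighbours and Leiden resolution 1. A cluster took a name from at least 3 markers. A shallow cluster with none of those markers among its 10 leading genes was left unnamed even so. No doublets were removed and no caller was run; cells above the 98th percentile of UMIs were left out as an alternative. Macrophage-like cells were set side by side between libraries by cluster name only, as 1 class. Levels are summed UMIs on the CPM scale; ratio intervals are exact conditional ones. Shares were compared after drawing each cell to 1000 UMIs, which left out shallower cells, and companion genes after drawing to 2000. Companions named are the 10 highest and 5 lowest ratios over genes that reached 50 CPM and 20 UMIs, and genes of like pattern are the 5 highest correlations; genes of other lists were named to describe those lists. The computations were tested on simulated data with counting error only, which does not cover the uneven spread of the 3 genes among cells. A count of 0 allows up to 3 counts. The members and lists were chosen with earlier results of these data known.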

Additional observations from a re-analysis of the deposited data

How the results depend on the processing

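No paired analysis was possible because each fraction has 1 library. Alternatives that leave out unnamed clusters, the richest cell or shared barcodes, the ratios within clusters 6, 10 and 20, and those that call cells on the full counts, were chosen after seeing the data. Of 97 values under an alternative, 52 stayed within their counting error or 1.5-fold, 43 moved and 2 turned round. The cause was not tested. With macrophage-like cells left out, the library ratio of Pnoc turned to 1.51 (0.479 before), that of Npy was 38.9 (235) and that of Gal 12.1 (4.26); with 2 unnamed clusters that carry macrophage markers also left out these were 1.62, 35.7 and 12.9. Leaving out deep cells gave a Gal ratio of 1.48, a Gal level of 29.1 CPM in its highest group and a Pnoc ratio of 0.291, or 1.51 within cluster 6 and 0.175 within cluster 10. Leaving out the 1 cell richest in the gene, which lay in GFPhi, gave a Gal ratio of 1.51, a Gal level of 34.8 CPM and a Pnoc ratio of 0.432; leaving out the richest cell of each library within a cluster gave 0.635 for Gal in cluster 20 and 0.558 for Pnoc in cluster 10. Scaling by the median of ratios put the median of all genes at 0.0438 (log2; -0.265 in CPM) and the Pnoc ratio at 0.593. The highest group level followed the clustering: Npy 157, 301 and 261 CPM (212), Gal 1067, 660 and 431 CPM (148) at resolution 0.5, at 2 and with its library clustered alone, and Pnoc 170 CPM at resolution 2 and 184 CPM alone (133). Shares of cells with a UMI in the library followed the depth, at 2000 UMIs and without thinning: Npy 6.29% and 12.4% (3.99%), Gal 0.149% and 0.553% (0.0418%), Pnoc in GFPlo 1.74% and 3.96% (1.01%). Within 1 cluster the median ratio of the named companions was 1.89 for Npy (3.20) and 1.78 for Pnoc in GFPlo (2.80). Over the alternatives 7 to 9 of the 10 highest Npy companions were shared, but only 1 to 6 of 10 for Pnoc in GFPlo: 2 at 1000 UMIs, where 4 of the 10 intervals lay above 1, 3 at 2 or more UMIs, and 1 within the cluster, where 6 intervals lay above 1 and the lowest ratio was 0.888. With Spearman's rho 2, 0 and 2 of the 5 like-pattern genes of Npy, Gal and Pnoc were shared, and without the Gal-rich cell 2 for Gal. Processing enzymes at least 1.5-fold lower were 3 at a minimum of 50 CPM (5 at 10); degrading enzymes 8 with no minimum and 2 at 50 (5). Over all features 4987 and 665 were higher with no minimum and at 50 CPM (1438), 9662 and 1008 were lower (2872), and 2057 were higher and 1875 lower under the median of ratios. Companions of Gal, and of Pnoc in GFPhi at 1000 UMIs, at 2 or more UMIs and within 1 cluster, could not be ranked for want of 30 cells. Depth also limits Gal, as 8 cells hold its UMIs in cluster 20.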

Other observations

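Cells with and without a precursor were called here on their full counts, with no matching of depth. The GFP reporter transcript was set side by side in them, in the clusters that hold Npy and Pnoc. In cluster 6 the intervals of the ratio held 1: it was at 21.4 CPM with Pnoc and 20.5 CPM without in GFPhi, 1.05-fold (0.705 to 1.56), and at 12.6 and 15.4 CPM in GFPlo, 0.818-fold (0.613 to 1.08). In cluster 0 of GFPhi it was lower, at 22.4 CPM with Npy and 28.3 CPM without, 0.789-fold, with an interval wholly below 1 (0.668 to 0.931). Cdkn2a, the gene of the p16 locus, was at 4.76 CPM with Pnoc and 7.96 CPM without in cluster 6 of GFPhi. In cluster 6 of GFPlo it was at 6.28 and 7.59 CPM. The UMIs were 12 and 21 in GFPhi and 36 and 88 in GFPlo. Both intervals of the ratio held 1, at 0.599-fold (0.268 to 1.27) and 0.828-fold (0.545 to 1.23). In cluster 0 of GFPhi Cdkn2a had 3 UMIs in cells with Npy and 0 in cells without.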
